A study of Mus musculus with 54 samples.

Results

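The comparison sets 3 single-nucleus RNA-seq (snRNA-seq) libraries of mouse kidney, made by the sucrose protocol, against 3 bulk RNA-seq libraries of intact, undissociated kidney. The 6 libraries are 6 of the 54 samples of the series, and they were taken by their labels: MJ57, MJ58 and MJ59 for SN_sucrose and LDK1, LDK2 and LDK3 for the intact kidneys, called libraries 1, 2 and 3 of each group here. The unique molecular identifiers (UMIs) of every nucleus of a library were summed, so that each library gave 1 profile, and these sums were set against the bulk read counts over the genes that both tables list, mitochondrial genes left out. All 6 kidneys came from untreated wild-type female Balb/c mice that were 15 weeks old and had served as breeders, and all were flash frozen whole. Nuclei were released with a detergent and DNase I, passed through a strainer and cleaned on a sucrose cushion with no sorting, and were profiled with 10x Genomics Chromium version 3 chemistry. The bulk libraries were poly(A)-selected libraries of total RNA of the whole organ. Each group was 3 kidneys of 3 mice, and the sources used here do not say whether the nuclei and the bulk RNA came from the same animals. The p-values below therefore measure the spread between kidneys within an assay, while the assay, the RNA fraction and the preparation change together and cannot be told apart.

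The nucleus holds RNA that is being transcribed and spliced, and RNAs that stay there, while most finished messenger RNA is in the cytoplasm. A count of nuclear RNA that includes introns therefore reads unspliced transcripts, which scale with the length of a gene, and bulk poly(A) RNA reads mostly mature messages from the whole cell. Stable messages of highly translated genes, such as those of ribosomal proteins and metabolic enzymes, accumulate in the cytoplasm, whereas several long noncoding RNAs, *Malat1* and *Neat1* among them, are known to be retained in the nucleus. Kidney is a tissue of many epithelial types, arranged along the nephron from the glomerulus through the proximal tubule, the loop of Henle and the distal convoluted tubule to the collecting duct, with endothelial, mesenchymal and immune cells between them. A level here is always a sum over all these cells, so that fewer cells of a type and less RNA per cell cannot be told apart.

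The nuclei libraries held 7985, 9308 and 7560 nuclei and 28214198, 29951251 and 26142380 UMIs, with a median of 3475, 3108.5 and 3393 UMIs per nucleus. The bulk libraries held 31093949, 29906670 and 29097780 reads assigned to genes, of which 2.22% to 2.32% were mitochondrial. UMIs count molecules and reads do not, so the totals are not the same measure of depth, and a nuclei library had a count for 17272 to 17443 genes and a bulk library for 23837 to 24797. The tables list 18679 genes for nuclei and 29071 for bulk, and 17783 non-mitochondrial genes with 1 unambiguous name are in both. These shared genes took 99.4% of the nuclei UMIs and 96.0% to 96.1% of the bulk reads. Between 13 and 23 barcodes were shared by any 2 nuclei libraries, at most 0.288% of the smaller one. All levels below are TMM-normalised CPM, the count of a gene divided by the total of the shared genes and scaled to a common library size, given for libraries 1, 2 and 3 in that order. They are per library and not per base of a gene, so a level is compared between groups for 1 gene and not between genes.

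A large part of the transcriptome differed strongly between nuclei sums and intact kidney. Of 16610 genes with enough counts, 3339 (20.1%) were called higher in nuclei and 2105 (12.7%) were called lower, at an edgeR quasi-likelihood adjusted p under 0.05 and a log2 fold change, nuclei over bulk, of at least 2 in size. The median log2 fold change of all genes tested was -0.01. These shares are the backgrounds against which the count of any gene list in CPM is read. They were 22.7% and 18.4% with bulk reads per exonic kb, and 31.9% and 28.8% in CPM at a log2 threshold of 1. All of these shares are over genes listed in both tables. By the study's methods the nuclei table kept only genes seen in 10 or more nuclei of a library. The 11240 non-mitochondrial genes listed for bulk only could not be called lower, nor the 883 listed for nuclei only higher. Without the fold threshold 14584 genes passed the adjusted p, 7293 higher and 7291 lower, and 14758 genes had groups that did not overlap. The spread between kidneys was thus smaller than the difference between the groups for most genes, and the size of a difference rather than its p-value sets genes apart below.

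**Figure D1:**
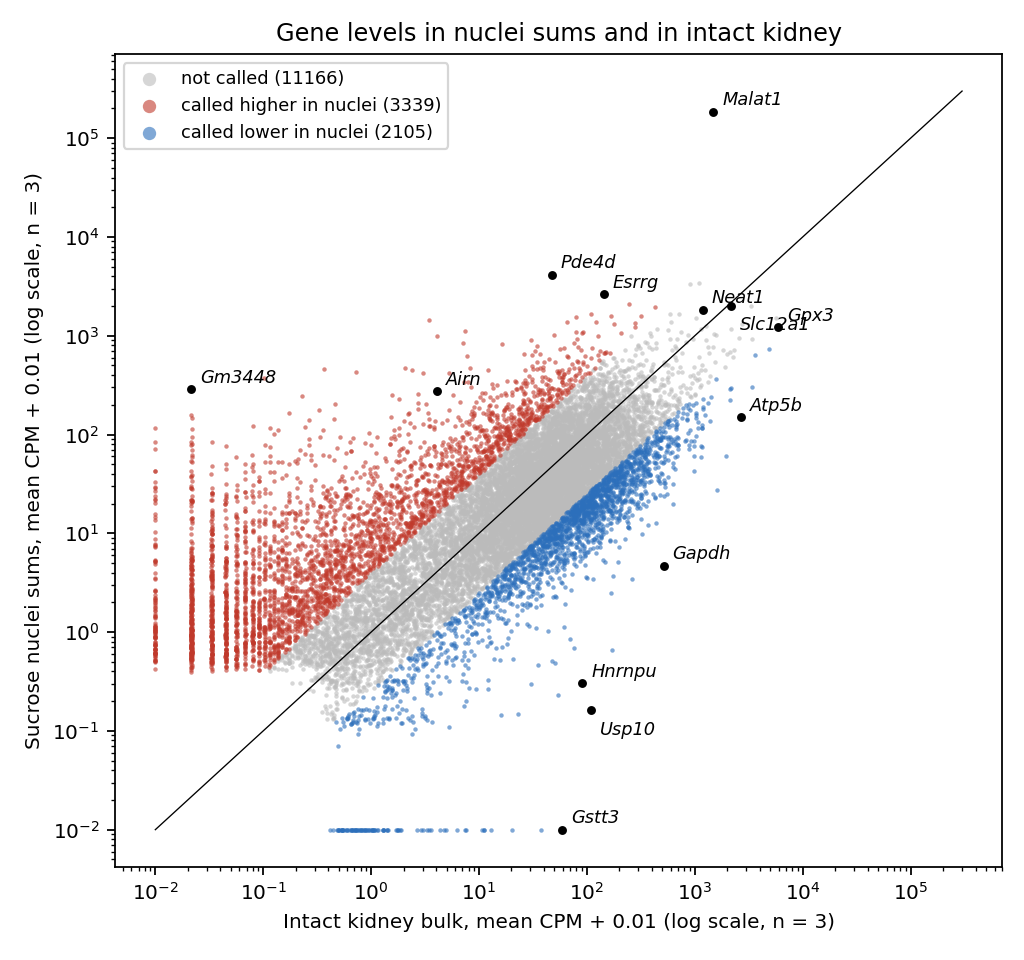
Mean level of each of the 16610 genes tested in intact kidney bulk (x axis) and in the sums of sucrose nuclei (y axis), in CPM plus 0.01 on log axes, 3 libraries a group. Red genes were called higher in nuclei (3339), blue genes lower (2105) and grey genes were not called. Malat1 stands alone at the top, and a row of blue genes such as Gstt3 is at 0 in all nuclei.

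*Malat1*, a nuclear-retained long noncoding RNA of chromosome 19 (chr19:5795690-5802672 on the minus strand, GRCm38), was by far the largest single item of the nuclei sums. It stood at 183320.0, 184047 and 189343 CPM in the nuclei libraries and at 1186, 1699 and 1574 CPM in the bulk libraries, a log2 fold change of 6.96 ± 0.38 (SE) with an edgeR adjusted p of 4.17e-08. As a share of all UMIs in shared genes, *Malat1* took 18.7% ± 0.477 (SD, n = 3) of the nuclei sums and 0.148% ± 0.029 (SD, n = 3) of the bulk reads. Long intergenic noncoding RNAs as a class took 20.2% ± 0.446 against 0.55% ± 0.046, and still 1.54% ± 0.03 against 0.401% ± 0.018 with *Malat1* left out. Antisense transcripts took 1.19% ± 0.028 against 0.181% ± 0.003. Protein-coding genes correspondingly took 76.3% ± 0.452 of the nuclei sums and 96.9% ± 0.043 of the bulk reads. The groups did not overlap in any of these shares. With 3 libraries against 3 the exact two-sided permutation test cannot give a p under 0.1, which each of these shares reached, and 45 of 48 shares compared did not overlap (smallest Benjamini-Hochberg adjusted p = 0.107).

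The 50 genes with the most counts of a library took 26% ± 0.23 of the nuclei sums and 10.0% ± 0.17 of the bulk reads, and 9.12% ± 0.255 against 9.98% ± 0.195 with *Malat1* left out of the genes and of the total, where the groups did not overlap (nuclei minus bulk, -0.862 percentage points). Behind *Malat1*, the genes with the highest CPM in nuclei included *Pde4d*, a cyclic AMP phosphodiesterase whose gene spans 1504 kb, *Xist*, the growth hormone receptor gene *Ghr*, the orphan nuclear receptor gene *Esrrg*, the repressor gene *Zbtb20* and *Pkhd1*, the gene of polycystic kidney and hepatic disease. *Pde4d* was at 4174, 4241 and 3911 CPM in nuclei and 42.5, 61.7 and 38.1 CPM in bulk, a 86.6-fold difference. *Esrrg* was at 2770.1, 2619 and 2518 CPM against 149.8, 143 and 137 CPM (log2 fold change 4.20 ± 0.10), *Zbtb20* at 2118, 2089.6 and 2036 against 237, 273 and 226 (3.09 ± 0.10), and *Pkhd1* at 2079, 1948 and 1846 against 468, 422 and 400.3 (2.19 ± 0.10). These 4 genes were called higher, whereas *Ghr*, with a log2 fold change of 1.91 ± 0.10, and *Xist* stayed under the fold threshold. In bulk the genes with the highest CPM included *Gpx3*, *Lrp2*, *Umod*, *Slc34a1*, *Ndrg1*, *Egf*, *Atp5b* and *Slc27a2*. Only the phosphate transporter gene *Slc34a1* was among the 10 highest genes of both groups, at 2109, 1963 and 1950.0 CPM in nuclei and 3514, 3361 and 3058 CPM in bulk (-0.72 ± 0.10).

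Of the long noncoding RNAs that are known to stay in the nucleus or near their site of transcription, 12 of the 20 listed were tested. Of these 8 (66.7%) were called higher in nuclei, against the background of 20.1%, and none lower, with a median log2 fold change of 3.27. That share was near those of all intergenic noncoding genes (68.5%) and all antisense genes (73.9%) tested, so it does not set the list apart from them. All 12 overlap another gene, so none remained with overlapping genes left out. *Airn*, the antisense RNA that silences *Igf2r* on the paternal chromosome, was at 278, 262 and 282 CPM in nuclei and 4.44, 4.53 and 3.33 CPM in bulk (6.06 ± 0.11). *Kcnq1ot1*, which does the same at the *Kcnq1* cluster, was at 343, 353 and 354 against 19.2, 23.7 and 21.6 CPM (4.02 ± 0.08). *Pvt1* (5.31 ± 0.09), *Ftx* (3.64 ± 0.07), *Snhg11* (2.90 ± 0.10) and *Jpx* (2.80 ± 0.08) were called higher too. Not all nuclear RNAs were far apart in CPM. *Neat1*, the scaffold of paraspeckles, was at 1846, 1896 and 1757 CPM in nuclei and 1054, 1276 and 1251 CPM in bulk, groups that do not overlap but differ by 1.54-fold (0.62 ± 0.10). *Xist*, which coats the inactive X chromosome of female cells, was at 3394, 3435 and 3433 against 1104, 1171 and 1023 CPM (1.64 ± 0.10). *Tsix*, its antisense partner, had 99.6, 97.6 and 88.6 CPM in nuclei and 1.75, 0.975 and 0.673 CPM in bulk (6.38 ± 0.19), but 46.5% of its exonic bases lie in other genes of its strand and it lies across *Xist*, so its level is uncertain. *Meg3* and *Miat* were near 1 CPM in both groups and were not called (0.22 and 0.58). With bulk reads per exonic kb *Neat1* (2.94), *Xist* (3.75) and *Meg3* (2.33) were called higher as well, and 11 of the 12 were, against a background of 22.7%, with a median of 4.43.

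Long introns went with a higher level in nuclei. When the 14343 protein-coding genes tested were put into 5 groups of equal size by intronic length, the median log2 fold change rose from -1.24 in the group with at most 5.64 kb of intron through -0.82, -0.43 and 0.14 to 1.44 in the group with 73.3 kb or more. In the group of shortest introns 4.36% of genes were called higher and 30.1% lower, and in the longest 38.1% were called higher and 1.29% lower. The genes of longest introns took 33.9% of the nuclei CPM and 17.4% of the bulk CPM, while those of the shortest took 6.61% and 17.5%. Bulk reads fall along the whole exonic length, so the scale was also changed to bulk reads per exonic kb. This divides the bulk counts only and leaves the nuclei UMIs, intronic ones included, as they are. The medians then ran from -1.95 to 2.41 over the same 5 groups, and 58.6% of the genes of longest introns were called higher, where 22.7% of the 16022 genes with an exonic length were called higher and 18.4% lower. By annotated class, the median was 3.90 over 874 antisense genes, of which 73.9% were called higher, 3.41 over 667 intergenic noncoding genes (68.5%) and 3.08 over 40 processed pseudogenes (70%). It was -0.23 over the protein-coding genes, of which 13.8% were called higher and 14.2% lower. Whether the bulk counting used strand is not stated, so the levels of antisense genes are uncertain. These are descriptions over genes of the same 6 libraries, with no test.

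**Figure D2:**
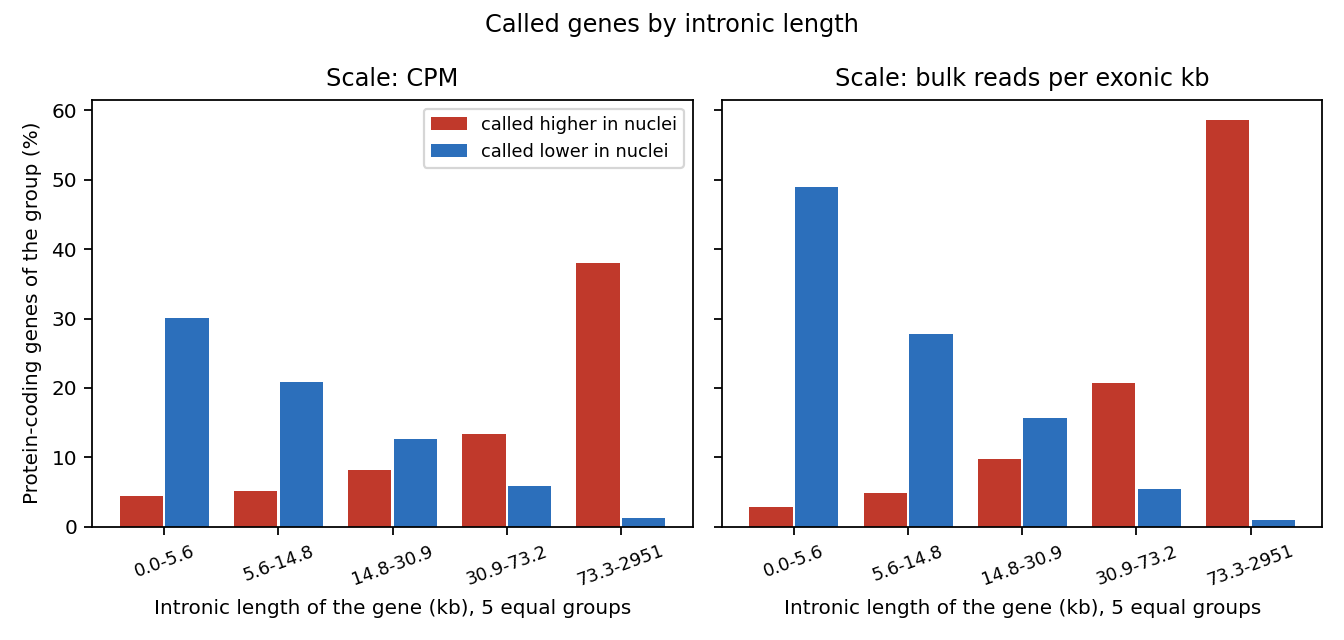
Share of protein-coding genes called higher (red) or lower (blue) in nuclei sums than in intact bulk, by 5 equal groups of intronic length in kb, with CPM (left) and with bulk reads per exonic kb (right). On both scales the share called lower falls and the share called higher grows from the shortest to the longest group, from 4.36% to 38.1% called higher with CPM.

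The genes of cell adhesion and scaffolding with a long span, many of them best known from neurons and receptor complexes, are one such group. Their median span was 1022 kb, and 23 of 28 tested were called higher against a background of 20.1%, with a median log2 fold change of 3.68. Of the protein-coding genes with the longest introns 38.1% were called higher. That group starts at 73.3 kb of intron, while the median of this list was 1010 kb. The list was drawn up for long spans, with earlier results of these data known. It was not compared with genes of like length. All 23 overlap another gene, so none of them was called with overlapping genes left out. *Erbb4*, a receptor tyrosine kinase gene of 1076 kb, was at 1599, 1495 and 1526 CPM in nuclei and 75.8, 76.9 and 82.7 CPM in bulk (4.29 ± 0.09), and *Ptprd*, a receptor phosphatase gene of 2271 kb, was at 1754, 1523 and 1482 against 364, 311 and 285 CPM (2.31 ± 0.12). The largest difference of the list, named after its values were seen, was that of the fragile-site gene *Fhit*, at 1171, 1046 and 1139 CPM against 8.53, 6.79 and 6.76 CPM (7.25 ± 0.13). A single member went the other way. *Cdh16*, the kidney-specific cadherin, has a short gene of 22.5 kb for this list and was at 139.5, 138 and 129 CPM in nuclei and 1378, 1307 and 1454 CPM in bulk (-3.35 ± 0.09). The other 4 members tested, *Ptprk* (1.95), *Macrod2* (1.84), *Dlg1* (0.97) and *Utrn* (0.97), had positive values under the threshold, and *Ptprk* passed it without bulk library 1 (2.02).

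The messages of the translation and energy machinery were mostly lower in nuclei. Of 81 ribosomal protein genes tested, 47 were called lower and 2 higher, against backgrounds of 12.7% and 20.1%, and the median log2 fold change was -2.16. *Rpl4* was at 24.8, 27.4 and 23.1 CPM in nuclei and 562, 541 and 549 CPM in bulk (-4.46 ± 0.08), and *Rps3* was at 64.3, 69.1 and 52 against 440.2, 425 and 435 CPM (-2.81 ± 0.10), and *Rpl8* had -2.31 ± 0.10. The 2 called higher are uncertain items. *Rpl24* had 44.3, 44.5 and 35.9 CPM in nuclei and 6.98, 6.83 and 7.22 CPM in bulk (2.57 ± 0.10), with 93.4% of its exonic bases inside *Gm28037* on the same strand, and came to 0.55 per exonic kb, and *Rpl6l* (6.07 ± 0.17) is a near copy of *Rpl6*, so that reads could be shared out differently by each counting method. Ribosomal protein genes have many processed pseudogenes, and the same limit holds for the list.

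Nuclear-encoded subunits of the respiratory chain and ATP synthase followed the same course, with 45 of 82 called lower and 1 higher, against backgrounds of 12.7% and 20.1%, and a median of -2.11. *Atp5b*, the catalytic beta subunit of ATP synthase, was at 161, 147 and 139.9 CPM in nuclei and 2773, 2628 and 2603 CPM in bulk, 17.9-fold lower (-4.16 ± 0.10). *Atp5a1* (-2.88 ± 0.09) and *Sdha* of complex II (-3.20 ± 0.09) were called lower as well. The member called higher was *Atp5s* (coupling factor B), at 52, 54.7 and 59.6 against 14.5, 13.7 and 13 CPM (2.01 ± 0.08), just past the threshold. Its call was lost without nuclei library 3 (1.95), bulk library 2 (1.98) or bulk library 3 (1.97). It was also lost without the filter on low counts (1.98) and with bulk reads per exonic kb (0.98), while 2 members were called higher without nuclei library 1. Among proteasome subunits 17 of 38 were called lower, and members of the complex were far apart. *Psmd2* was at 13.7, 14.3 and 12.2 CPM in nuclei and 245, 229 and 232 CPM in bulk (-4.13 ± 0.07) and *Psmd3* had -2.26 ± 0.08, while *Psmd1* was at 109, 98.7 and 93.1 and 142, 125 and 138 CPM (-0.43 ± 0.07), was not called and turned to 0.37 per exonic kb.

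Glycolysis was the list with the lowest median in CPM, -3.10, with 11 of 15 genes called lower, against the background of 12.7%, and none higher. Per exonic kb its median was -2.82 and 7 of the lists had a lower one, the lowest being that of glutathione and metallothionein genes (-3.86). *Gapdh*, a common reference gene of expression assays (chr6:125161715-125166467 on the minus strand), was at 5.32, 4.52 and 4.29 CPM in the nuclei libraries and 525, 503 and 519 CPM in the bulk libraries, 109.6-fold lower (-6.77 ± 0.10, edgeR adjusted p = 5.77e-11). *Aldoa* was at 44.2, 45.8 and 39.7 against 973, 946 and 1012 CPM (-4.50 ± 0.09) and *Tpi1* at 76.1, 69.2 and 67.2 against 703, 688 and 688 CPM (-3.29 ± 0.08), while the lactate dehydrogenase gene *Ldhb*, with -2.0 ± 0.07, fell just short of a call and passed it without any single nuclei library (-2.01, -2.0 and -2.0) or without bulk library 2 (-2.05). *Gapdh* and *Aldoa* have many pseudogenes, so their counts are uncertain. In fatty acid oxidation 15 of 24 were called lower (median -2.42), with *Acadm* at 133, 168 and 137 CPM in nuclei and 1076, 1056 and 954 CPM in bulk (-2.81 ± 0.11). *Ehhadh*, of the peroxisomal pathway, was called lower too (-2.21 ± 0.34), but nuclei library 2 stood at 315 CPM against 128 and 117 CPM in the others, and the call was lost without nuclei library 3 (-1.97). The 1 member called higher was *Ppara*, the transcription factor that drives these enzymes, at 368, 363 and 469 against 99.5, 84.1 and 53.5 CPM (2.34 ± 0.20).

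Chaperones and redox enzymes were lower in nuclei as well. Of 22 heat shock and chaperone genes 16 were called lower, against the background of 12.7%, and none higher (median -2.93), among them *Hspa9* of the mitochondrial matrix (-3.42 ± 0.08), the endoplasmic reticulum chaperone *Calr* (-3.63 ± 0.11) and the cytosolic *Hsp90ab1*, at 88.9, 97.4 and 73.4 CPM in nuclei and 948, 1043 and 947 CPM in bulk (-3.50 ± 0.12). Of 20 glutathione and metallothionein genes 13 were called lower (median -2.34). *Gpx3*, the plasma glutathione peroxidase that the kidney secretes, had the highest bulk level of the shared genes by CPM, at 6223, 6084 and 5591 CPM, and 1222, 1429 and 987 CPM in nuclei (-2.30 ± 0.15). Catalase, *Cat*, was at 144, 113 and 146 against 1198, 1001 and 1024 CPM (-3.0 ± 0.12), and *Gpx1* had -3.03 ± 0.14.

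**Figure D3:**
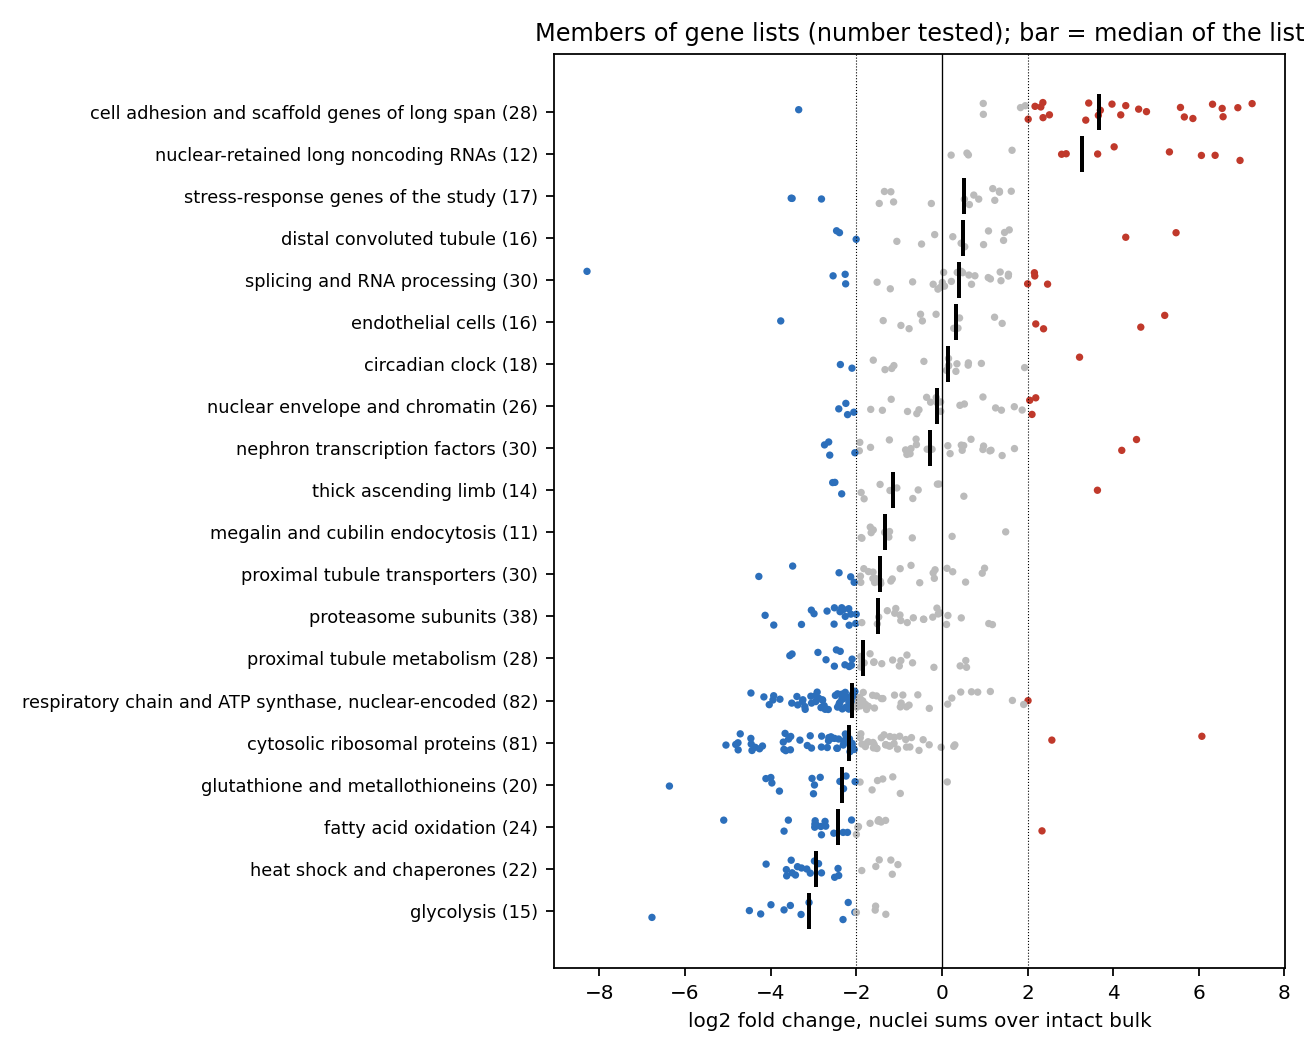
log2 fold change, nuclei sums over intact bulk, of each tested member of 20 gene lists (rows, with the number tested), points coloured red where called higher, blue where called lower and grey where not called, black bars at the median of a list and dotted lines at the fold threshold of 2. The lists of long adhesion genes and nuclear-retained RNAs lie at the right with medians of 3.68 and 3.27, and glycolysis at the left with -3.10.

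Replication-dependent histone messages, which end in a stem loop and mostly lack a poly(A) tail, had 5 of 16 tested called higher (31.2% against the background of 20.1%) and 3 lower (18.8% against 12.7%). The list has 56 members, of which only 19 are listed for both nuclei and bulk. Members that were not tested could not be called in either direction. The 5 called higher, named after their values were seen, were *Hist4h4* (4.45), *Hist2h2ac* (3.93), *Hist1h1e* (3.02), *Hist2h4* (2.81) and *Hist1h4d* (2.31), with at most 25.1 CPM in any nuclei library. The 3 called lower were *Hist2h3c2* (-2.90), *Hist1h2al* (-2.80) and *Hist2h2be* (-2.51). *Hist2h3c2* had 12 UMIs in nuclei library 2 and is listed at 0 in the others, against 30 to 32 reads in bulk, and a listed 0 can stand for up to 9 nuclei, so its value and its call rest on how such zeros are listed. The median of the list, 0.16, turned to -2.66 with bulk reads per exonic kb. On that scale 1 was called higher and 9 lower, against backgrounds of 22.7% and 18.4%. *Hist1h1c*, with the most counts of the list, was at 43.1, 68.7 and 46.6 CPM in nuclei and 163, 204 and 204 CPM in bulk and was not called (-1.85 ± 0.17). It was called lower without nuclei library 2 (-2.1), which raised the count called lower from 3 to 6, as was *Hist1h2bc* (-1.86 ± 0.10, and -2.01 without that library), and *Hist1h4i* had 0.04 ± 0.21 and turned to -2.48 per exonic kb. Histone genes are near-identical copies, so all of these counts are uncertain.

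Genes whose proteins work in the nucleus were called in both directions. Of 30 splicing and RNA processing genes 4 were called higher and 4 lower (13.3% each, against backgrounds of 20.1% and 12.7%), with a median of 0.40. *Rbm39* was at 1189, 1234 and 1287 CPM in nuclei and 274, 283 and 274 CPM in bulk (2.16 ± 0.08), and *Prpf4b* (2.47), *Luc7l2* (2.17) and *Srsf7* (2.0) were the others called higher, *Srsf7* only just, since it was lost without nuclei library 2 (1.98), nuclei library 3 (2.0) or bulk library 1 (1.91), without the filter on low counts (1.97) or per exonic kb (1.77). *Hnrnpa1* (-2.54), *Rbm3* (-2.26), *Hnrnpk* (-2.25) and *Hnrnpu* (-8.29) were called lower, *Hnrnpk* not per exonic kb (-1.62). Per exonic kb 9 of this list were called higher and 3 lower, against backgrounds of 22.7% and 18.4%. The helicase gene *Ddx5* was level between the groups, at 886, 853 and 876 CPM in nuclei and 831, 863 and 814 CPM in bulk (0.06 ± 0.07, edgeR adjusted p = 0.45). *Hnrnpa2b1* had -0.68 ± 0.07. Among 26 genes of the nuclear envelope and chromatin 3 (11.5%) were called higher, *Crebbp* (2.19), *Tet2* (2.1) and *Arid1b* (2.05), and 4 (15.4%) lower, *Kmt2d* (-2.41), *Dnmt1* (-2.24), *Lmnb2* (-2.20) and *Lmna* (-2.06). *Tet2* was not called without nuclei library 2 (1.85). *Lmna* was not called with relative log expression factors (-1.97) or DESeq2 (-1.98), per exonic kb (-1.57) or with overlapping genes left out (-1.63), nor *Lmnb2* with overlapping genes left out (-1.78) and *Dnmt1* per exonic kb (-1.42). The chromatin remodeller genes *Chd2* (1.69 ± 0.08) and *Chd4* (-1.39 ± 0.07) were not called. The median of this list was -0.12, and 0.73 with bulk reads per exonic kb, where *Kmt2d* came to -0.15. On that scale 9 were called higher and 1 lower, against backgrounds of 22.7% and 18.4%.

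Of 30 transcription factors of the nephron 2 (6.67%) were called higher and 4 (13.3%) lower, against backgrounds of 20.1% and 12.7%, with a median of -0.29. Per exonic kb the median was 0.18, and 6 were called higher and 6 lower, against backgrounds of 22.7% and 18.4%. In CPM *Esrrg* and *Hnf4g* were called higher, *Hnf4g* at 250.4, 264 and 279 CPM in nuclei and 12.9, 12.5 and 8.57 CPM in bulk (4.55 ± 0.14). *Hnf4a*, its relative and a main regulator of the proximal tubule, went the opposite way, at 183, 160.1 and 157 CPM in nuclei and 1059.6, 1047 and 968 CPM in bulk (-2.62 ± 0.09). *Foxi1*, the regulator of intercalated cells, *Hoxd8* and *Pou3f3* were also called lower (-2.74, -2.65 and -2.03). All exonic bases of *Pou3f3* lie inside another gene of its strand, and its call was lost with relative log expression size factors (-1.95), without nuclei library 2 (-1.99) or without bulk library 3 (-1.99) and per exonic kb (-1.20). *Tfcp2l1*, a factor of the distal nephron, was at 385, 395 and 446 against 599, 672 and 592 CPM (-0.60 ± 0.09), was not called and turned to 0.58 per exonic kb. Of 18 clock genes *Rora* was called higher (3.21 ± 0.10) and *Nr1d1* (-2.37) and *Nfil3* (-2.1) lower, *Nfil3* not without bulk library 3 (-1.85). The count called higher was 2 without nuclei library 2, nuclei library 3 or bulk library 3 and with relative log expression factors or DESeq2, the second being *Ciart* (1.93 ± 0.42) at under 1.4 CPM, and it was also 2 per exonic kb. None of the list was called with overlapping genes left out, where 6 of its genes remained. The output regulators *Tef* (0.33 ± 0.15) and *Hlf* (0.11 ± 0.10) did not pass the adjusted p.

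**Figure D4:**
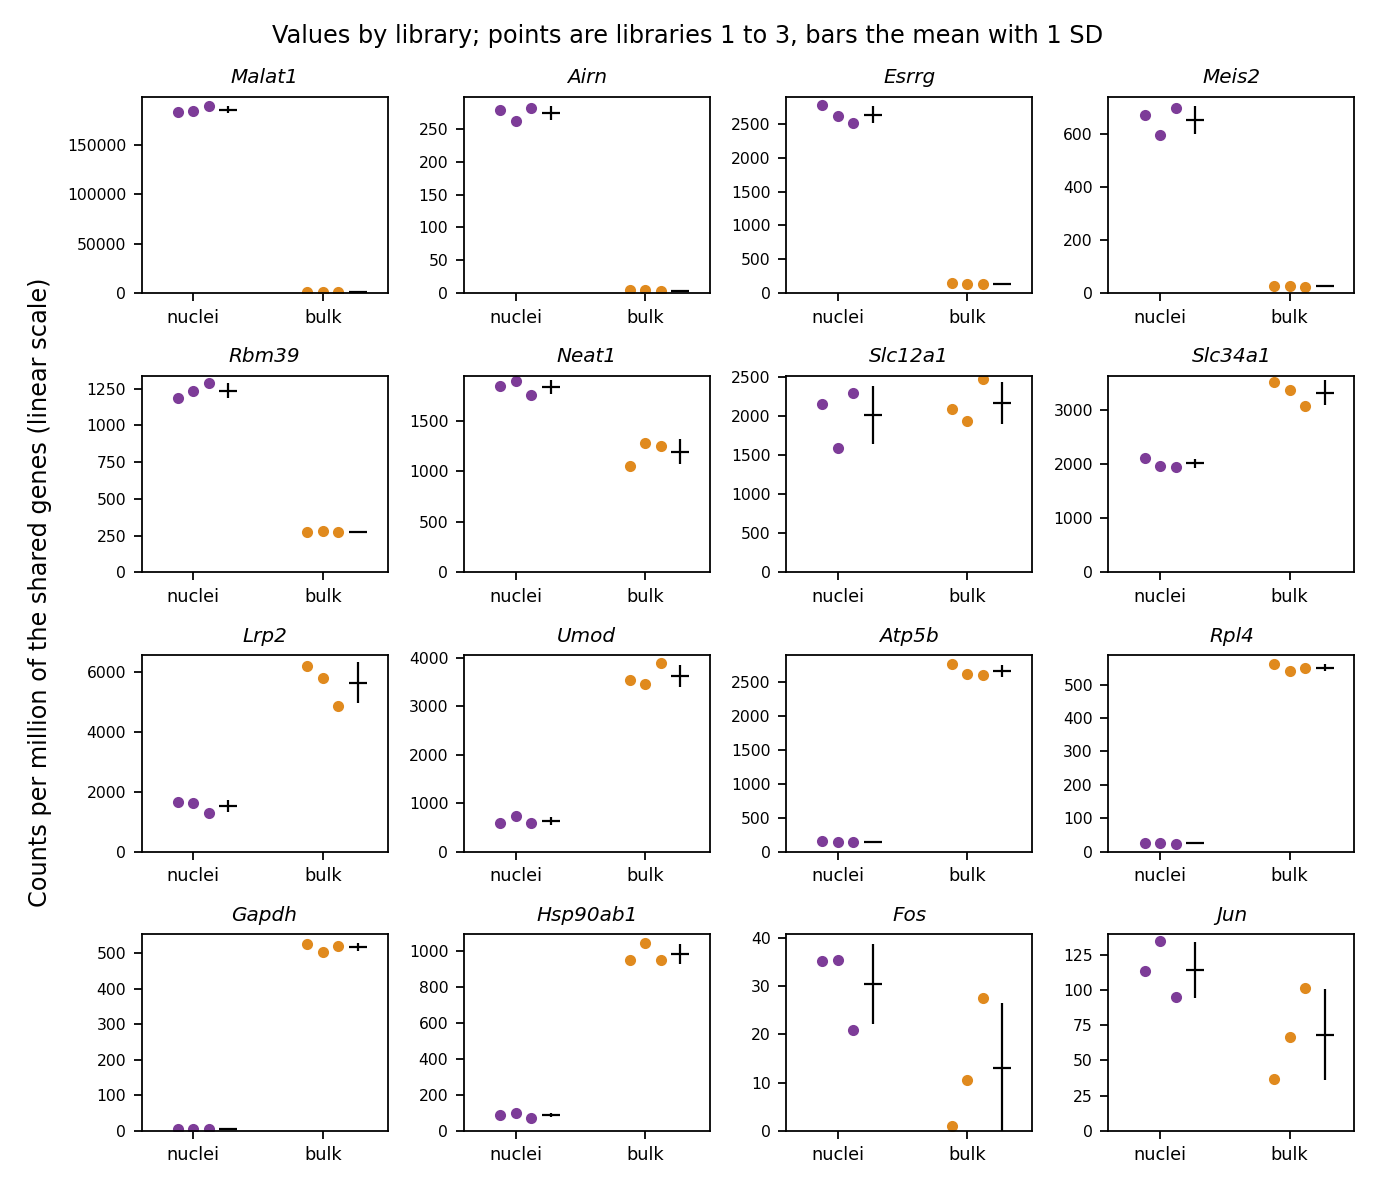
Levels of 16 genes in the 3 nuclei libraries (purple) and the 3 bulk libraries (orange), in CPM of the shared genes on linear axes that start at 0, with the mean and 1 SD in black. Malat1, Airn, Esrrg, Meis2 and Rbm39 are higher in every nuclei library, Slc12a1 overlaps, Umod, Atp5b, Rpl4, Gapdh and Hsp90ab1 are lower in every nuclei library, and Fos and Jun spread widely over the bulk libraries.

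The proximal tubule, which reabsorbs most of the filtrate, is the main cell mass of the kidney. Of 30 transporter genes none was called higher and 5 (16.7%) were called lower, against the background of 12.7%. Per exonic kb 9 were called lower (background 18.4%), at a log2 threshold of 1 there were 19 (background 28.8%), and with overlapping genes left out 1 of the 17 that remained was called. Their log2 fold changes ran from -4.28 to 1.00 with a median of -1.44, and 5 were above 0. The 5 called lower are *Aqp1*, the water channel, at 60, 66.8 and 51 CPM in nuclei and 1200.2, 1125 and 1123 CPM in bulk (-4.28 ± 0.11), the urate transporter gene *Slc22a12* (-3.49 ± 0.19), the organic anion transporter gene *Slc22a6* (-2.40 ± 0.11), *Slc3a1* (-2.13 ± 0.10) and *Slc5a1* (-2.05 ± 0.07). The call of *Slc5a1* was lost with relative log expression factors or DESeq2 (-1.97 with both) and that of *Slc22a6* with overlapping genes left out (-1.98). The sodium bicarbonate cotransporter gene *Slc4a4* (-0.52 ± 0.12) and the fatty acid transporter gene *Slc27a2* (-1.44 ± 0.11) were lower by less and were not called, and *Slc4a4* came to 0.86 with bulk reads per exonic kb. Of 28 metabolic genes 11 (39.3%) were called lower (median -1.84), and 3 were above 0, up to 0.58. *Pck1* of gluconeogenesis, at 538, 647 and 659 CPM in nuclei and 2522, 2715 and 1522 CPM in bulk (-1.87 ± 0.20), and the aspartic protease gene *Napsa* (-1.68 ± 0.11) were not called. *Pck1* was called lower without bulk library 3 (-2.1).

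None of the 11 genes of megalin and cubilin endocytosis was called in CPM. Per exonic kb 1 was called higher and 2 lower, against backgrounds of 22.7% and 18.4%. At a log2 threshold of 1 there were 1 higher and 8 lower, against 31.9% and 28.8%. *Lrp2*, megalin, was at 1661, 1620.3 and 1284 CPM in nuclei and 6205, 5803 and 4871 CPM in bulk (-1.89 ± 0.15), and *Cubn* at 431, 437 and 393 against 1201, 1119 and 869 CPM (-1.34 ± 0.12), while their adaptor *Dab2* was higher in nuclei, at 1659.8, 1984 and 1325 against 631, 611 and 528 CPM (1.49 ± 0.15). All 3 had groups that do not overlap, as had 14758 of all 16610 genes tested. With bulk reads per exonic kb *Cubn* turned to 0.50, while *Lrp2* came to 0.12 and did not pass the adjusted p (edgeR adjusted p = 0.455). The median of the list went from -1.34 to 0.12. *Ndrg1*, among the 10 highest genes of bulk, was not called (-1.88 ± 0.17), except without nuclei library 2 (-2.1).

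In the thick ascending limb, which dilutes the urine, *Slc12a1* and *Umod* came apart. *Slc12a1*, the target of loop diuretics, was at 2148, 1589 and 2291 CPM in nuclei and 2087, 1934 and 2467 CPM in bulk, groups that overlap (-0.11 ± 0.15, edgeR adjusted p = 0.52). *Umod*, uromodulin, the most abundant protein of normal urine, was at 591, 736 and 597 against 3532, 3466 and 3892 CPM (-2.50 ± 0.12). *Egf*, made in this segment and the next, was at 1276, 1221 and 1478 against 2765, 2479 and 3002 CPM (-1.05 ± 0.12) and turned to 0.38 per exonic kb. Of 14 genes of this list *Enox1* was called higher (3.63 ± 0.15) and 3 (21.4%) were called lower against the background of 12.7%, among them *Umod* and *Bst1* (-2.55 ± 0.19). Per exonic kb 6 were called lower (background 18.4%), and at a log2 threshold of 1 there were 8 (background 28.8%). None of the 6 that remained with overlapping genes left out was called, where 1044 of all 6982 genes were called higher and 746 lower. Of 19 secreted or small tubule proteins 3 (15.8% against the background of 12.7%) were called lower, *Clu* (-3.18 ± 0.08), *Umod* and *Gpx3*, and the median was -1.15. Per exonic kb 13 of 18 were called lower, against the background of 18.4%, with a median of -2.86.

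The distal convoluted tubule list had 2 of 16 called higher (12.5% against the background of 20.1%) and 3 lower (18.8% against 12.7%) in CPM with a median of 0.49. Per exonic kb 6 were called higher and 3 lower, against 22.7% and 18.4%, with a median of 1.75. *Slc12a3*, the thiazide-sensitive transporter, was at 942, 944 and 1192 CPM in nuclei and 923, 879 and 779 CPM in bulk (0.25 ± 0.11, edgeR adjusted p = 0.06). *Sox5* (5.47 ± 0.09) and *Erbb4* were called higher, and *Calb1*, *Pvalb* (-2.46 ± 0.08) and *Wnk4* (-2.0 ± 0.08) lower, *Wnk4* only just, since it was lost without nuclei library 2 (-1.94) or bulk library 3 (-1.96), and with relative log expression factors or DESeq2 (-1.92 with both) or library totals alone (-1.99). *Calb1*, calbindin, a cytosolic calcium buffer, was at 79.1, 84.8 and 106 against 428, 493 and 496 CPM (-2.39 ± 0.12), and *Klk1*, tissue kallikrein, at 248, 271 and 267 against 882, 839 and 831 CPM (-1.70 ± 0.07) and not called. In the connecting tubule list the sodium-calcium exchanger gene *Slc8a1* was called higher, at 1285, 1084 and 1761 against 104, 137 and 126 CPM (3.49 ± 0.19), together with *Snhg11*, and *Calb1* and the klotho gene *Kl* (-2.27 ± 0.07) lower. *Kl* was not called per exonic kb (-1.10).

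Collecting duct principal cells, which answer to vasopressin and aldosterone, had 1 of 17 genes called higher (5.88% against the background of 20.1%) and 5 lower (29.4% against 12.7%), with a median of -1.21. The gene called higher was *Nr3c2*, the mineralocorticoid receptor gene, at 389.6, 347 and 413 CPM in nuclei and 40.7, 39.8 and 41.2 CPM in bulk (3.24 ± 0.08). Those called lower were the water channel genes *Aqp3* (-2.47 ± 0.12) and *Aqp4* (-2.58 ± 0.13), the sodium channel gene *Scnn1a* (-2.41 ± 0.13), *Hsd11b2* (-2.1 ± 0.09) and the vasopressin receptor gene *Avpr2* (-2.02 ± 0.23), whose call was lost without nuclei library 2 (-1.93) or bulk library 3 (-1.68) and with relative log expression factors or DESeq2 (-1.93 with both). With overlapping genes left out *Scnn1a* (-1.98) and *Hsd11b2* (-1.67) were not called. *Aqp2* was at 163, 121 and 116 CPM in nuclei and 424, 341 and 658 CPM in bulk, with bulk library 3 highest, and was not called with all 6 libraries (-1.83 ± 0.23), but was called lower without nuclei library 1 (-2.0) or bulk library 2 (-2.05) and per exonic kb (-3.39). The potassium channel gene *Kcnj1* was not called (-1.82 ± 0.09), and was per exonic kb (-2.14). Of 12 type A intercalated genes 3 (25%, or 5 genes per exonic kb against the background of 18.4%) were called lower, *Aqp6* (-4.34 ± 0.10), the anion exchanger gene *Slc4a1* (-3.94 ± 0.08) and *Foxi1*, and *Car2* (-1.63 ± 0.07), *Adgrf5* (-1.37 ± 0.06) and *Rhcg* (-1.15 ± 0.06) were not called, but *Car2* (-2.41) and *Rhcg* (-2.05) were per exonic kb. Of 7 type B genes *Tmem117* was called higher (3.64 ± 0.07), and pendrin, *Slc26a4*, was level at 140.3, 159.5 and 189.7 against 142, 139 and 141 CPM (0.21 ± 0.10). *Slc4a9*, also of type B cells, had -0.39 ± 0.07 and turned to 0.24 per exonic kb. It came to 0.043 with overlapping genes left out, a setting that moved all genes that remained up by a median of 0.43.

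Of 12 thin limb genes *Cdh13* was called higher (2.51 ± 0.10) and *Slc14a2* (-3.95 ± 0.23), *Cldn4* (-3.06 ± 0.11) and *Bst1* lower, 25% against the background of 12.7%. *Slc14a2* spans 451 kb, of which 446 kb are intron, and so goes against the course of most genes with long introns. *Cryab*, *Akr1b3* and *Tspan18* had -1.87, -1.41 and 1.52 and were not called. Bulk library 3 was the highest for *Cryab*, at 193 CPM against 100.4 and 104 CPM, and for *Akr1b3*, both genes with a high level in the inner medulla, as it was for *Aqp2*. *Cryab* was called lower without bulk library 1 (-2.05) or bulk library 2 (-2.04) and per exonic kb (-3.37).

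Podocytes, the filter cells of the glomerulus, had 2 of 15 genes called higher (13.3% against the background of 20.1%) and 5 lower (33.3% against 12.7%) in CPM, and 4 higher and 2 lower per exonic kb, against 22.7% and 18.4%. *Dach1*, a transcription factor gene of 383 kb, was at 474, 456 and 522 CPM in nuclei and 37.7, 42.4 and 38.5 CPM in bulk (3.61 ± 0.08), and *Ptprq* was also higher (5.65 ± 0.31). Among those lower, *Podxl*, a sialomucin gene, was at 74.7, 67.5 and 64.3 against 336, 339 and 386 CPM (-2.36 ± 0.08), and *Synpo* (-2.38 ± 0.12), *Cdkn1c* (-2.46 ± 0.08) and *Enpep* (-2.09 ± 0.05) were lower too, while *Clic5* was not called (-1.69 ± 0.06). Per exonic kb *Podxl* (-1.96), *Synpo* (-1.19) and *Enpep* (-1.91) were not called. In the parietal epithelium list *Pawr* was called higher (2.66 ± 0.09) and *Cldn1* lower (-3.12 ± 0.11), *Pawr* not per exonic kb (1.40), and *Pax8* (0.97 ± 0.08) and *Kazn* (0.24 ± 0.06) were not called. Both glomerular lists thus held members at either end.

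Of 16 endothelial genes 4 were called higher and 1 lower, at backgrounds of 20.1% and 12.7%. *Meis2* was at 670.3, 595 and 697 CPM in nuclei and 27, 26.2 and 25.2 CPM in bulk (4.65 ± 0.09), *Ldb2* at 435, 426 and 485 against 11, 13.1 and 12.4 CPM (5.20 ± 0.09), and the sialomucin gene *Emcn* at 319.5, 313 and 309.9 against 53.9, 63.2 and 64.6 CPM (2.37 ± 0.08), with *Adgrl4* (2.19 ± 0.08) the last of them. *Egfl7*, a secreted endothelial factor, was lower (-3.77 ± 0.08), but 84.2% of its exonic bases lie inside another gene of its strand. The list took 0.261% ± 0.01 of the nuclei sums and 0.101% ± 0.007 of the bulk reads. *Meis2* and *Ldb2*, which carry much of the nuclei share, are also expressed outside the endothelium. In mural, mesangial and fibroblast genes 2 of 21 (9.52%) were called higher, *Ebf1* (5.17 ± 0.09) and *Piezo2* (2.43 ± 0.14), and 6 (28.6%) lower, among them the smooth muscle genes *Acta2* (-3.39 ± 0.30) and *Myh11* (-2.77 ± 0.17), the pericyte gene *Rgs5* (-4.09 ± 0.12) and renin, *Ren1*. The median of this list was -1.23, and 0.11 per exonic kb, where *Myh11* was not called (-1.90). *Ren1*, made by juxtaglomerular cells, was at 13.4, 13.5 and 7.96 CPM in nuclei and 56.9, 93.3 and 123 CPM in bulk (-2.97 ± 0.28), and *Fbln5* was not called (0.39 ± 0.15).

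Few immune genes were called in CPM. Among 12 macrophage genes *Csf1r* alone was called lower (8.33% against the background of 12.7%), at 28.4, 25.3 and 27.4 CPM in nuclei and 142, 113 and 128 CPM in bulk (-2.24 ± 0.09). Per exonic kb 6 others were called lower, against the background of 18.4%, and *Csf1r* was not (-1.77). *Cd74* (-0.54 ± 0.12) and lysozyme, *Lyz2* (-0.88 ± 0.14, and called at -2.55 per exonic kb), were not called in CPM. Of 14 lymphocyte genes 1 was called higher and 1 lower (7.14% each, against backgrounds of 20.1% and 12.7%). *Skap1* was higher, at 21.3, 20.7 and 29.2 against 1.68, 1.36 and 1.56 CPM (3.95 ± 0.18), and *Cd8a* lower (-2.76 ± 0.32), both under 30 CPM in every library. The count called higher was 2 with DESeq2 and without nuclei library 2, bulk library 1 or bulk library 3. The second was *Cd79a* (1.89 ± 0.43) at under 1 CPM, which was also called with overlapping genes left out. Per exonic kb 3 were called lower, against the background of 18.4%. *Ighm* was at 1.32, 1.61 and 1.29 against 4.81, 5.4 and 4.92 CPM (-1.84 ± 0.16) and *Cd79b* at 1.36, 1.71 and 1.4 against 1.13, 0.94 and 1.88 CPM (0.18 ± 0.28). Of the 7 neutrophil genes 2 were tested, of which *Camp* had 2.46, 1.84 and 2.24 CPM in nuclei and no read in bulk and *S100a9* had 0, 0.636 and 0 against 0.653, 0.174 and 0.744 CPM and was not called (-1.21), except per exonic kb (-4.18) and without nuclei library 2, where it is listed at 0 in both other nuclei libraries and no fold is given. All of its values rest on how such zeros are listed. None of the 13 antigen presentation genes of the major histocompatibility complex was called, while 2 were called lower per exonic kb, against the background of 18.4%, and 4 at a log2 threshold of 1, against that of 28.8%. *H2-D1* had 0.06 ± 0.09 and *H2-K1* -0.16 ± 0.09, and *B2m* was at 108, 122 and 98.8 against 207, 228 and 231 CPM (-1.02 ± 0.08). *H2-D1* and *H2-K1* are close relatives, so reads between them are uncertain.

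The 17 stress-response genes that the study defined from warm dissociation of other kidneys had a median log2 fold change of 0.52, and -0.58 with bulk reads per exonic kb. None was called higher and 3 (17.6%) were called lower, against backgrounds of 20.1% and 12.7%. These 3 were the heat shock genes *Hspa1b* (-3.52 ± 0.23), *Hsp90ab1* and *Hspa8* (-2.81 ± 0.14). Per exonic kb 1 was called higher and 5 lower, against backgrounds of 22.7% and 18.4%. At a log2 threshold of 1 there were 4 higher and 7 lower, against 31.9% and 28.8%. The bulk libraries differed widely from each other in the immediate-early genes. *Fos* was at 35.2, 35.3 and 20.9 CPM in nuclei and 0.928, 10.5 and 27.6 CPM in bulk, so that bulk library 3 lay inside the nuclei range and library 1 far under it (1.23 ± 0.68, edgeR adjusted p = 0.11). *Egr1* was at 45.9, 49 and 41.3 against 4.02, 30.5 and 60.3 CPM (0.52 ± 0.61), *Jun* at 114, 135 and 95 against 36.9, 66.9 and 101 CPM (0.74 ± 0.29), and *Fosb* at 5.32, 4.08 and 2.43 against 0.275, 1.01 and 2.58 CPM (1.62 ± 0.54). For all of these genes the order of the bulk libraries was 1, 2, 3 from lowest to highest. Without bulk library 3 *Fos* (2.42) and *Fosb* (2.61) were called higher. *Junb* (1.19 ± 0.28), *Btg2* (1.34 ± 0.26), *Ier3* (1.34 ± 0.19) and *Ier2* (0.86 ± 0.21) passed the adjusted p but not the fold threshold, and *Ier3* and *Ier2* turned to -0.54 and -0.59 per exonic kb. *Jund* (-1.34 ± 0.10), *Btg1* (-1.13 ± 0.07), *Hspa1a* (-1.46 ± 0.14) and *Hspb1* (-1.19 ± 0.17) were lower without a call, and *Atf3* (0.64 ± 0.30) and *Dusp1* (-0.25 ± 0.27) did not pass the adjusted p. The heat shock genes *Hspa1a* and *Hspa1b* are near-identical copies.

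Hemoglobin messages come from red blood cells, which have no nucleus in adult mammals, and none of the 4 genes was called. *Hbb-bs* was at 29.7, 33.7 and 24.4 CPM in nuclei and 59.4, 40.7 and 144 CPM in bulk (-1.47 ± 0.39), and *Hba-a1* at 11.5, 10.3 and 9.52 against 16.8, 10.7 and 45.3 CPM (-1.21 ± 0.44). Per exonic kb all 4 were called lower, against the background of 18.4%. Bulk library 3 was the highest for both, while the nuclei libraries lay close together. *Hba-a2* (0.36 ± 0.46, and -2.28 per exonic kb) and *Hbb-bt* (-1.18 ± 0.51) did not pass the adjusted p. The hemoglobin copies are near identical, and the split of reads between them is uncertain. As a check of the labels, *Xist* was high in all 6 libraries and *Ddx3y* and *Uty*, of the Y chromosome, had 25 to 47 UMIs in a whole nuclei library.

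Of 12 tubule injury genes 4 (33.3% against the background of 12.7%) were called lower in nuclei and none higher. *Havcr1*, kidney injury molecule 1, was at 12.9, 28.8 and 17.4 CPM in nuclei and 159, 165 and 151 CPM in bulk (-3.0 ± 0.23), *Clu*, clusterin, at 21.6, 20.1 and 24.3 against 198, 189 and 213 CPM (-3.18 ± 0.08), and *Krt8* (-3.25 ± 0.07) and *Vim* (-2.95 ± 0.15) made up the 4. Osteopontin, *Spp1*, was not called (-1.20 ± 0.09). Of 14 proliferation genes 5 (35.7%) were called lower, *Pcna* at 2.68, 3.15 and 2.84 against 33.9, 33.7 and 34.8 CPM (-3.56 ± 0.09), *Mcm2* (-3.30 ± 0.12), *Mcm5* (-3.28 ± 0.18), *Cdc20* (-4.21 ± 0.64) and *Ube2c* (-2.24 ± 0.55), the last not without nuclei library 3 (-1.71) and, like *Cdc20*, listed at 0 in at least 1 nuclei library, and *Cdk1* was called higher, at 5.93, 5.09 and 4.59 against 0.722, 1.11 and 0.921 CPM (2.50 ± 0.20).

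The 12 genes with the largest positive log2 fold change and at least 20 CPM in nuclei were nearly absent from bulk. They were *RP23-32A8.5*, *1700042O10Rik*, *Gm3448*, *Gm14306*, *Gm32250*, *Gm28539*, *Gm16599*, *Gm26733*, *1500035N22Rik*, *4930486I03Rik*, *Ang4* and *Gm29237*, and each had 0 or 1 read in every bulk library. *RP23-32A8.5* was at 123, 116 and 108 CPM in nuclei with no bulk read, at least 3325-fold higher when bulk is set to 3 reads over the group. *Gm3448* was at 280.3, 300.0 and 283 CPM in nuclei with 1 read over the 3 bulk libraries, and *Gm16599* and *Gm26733* were at 169.8, 157 and 141 and 156, 149.6 and 139 CPM with 1 read each. Of the 10 matched to the annotation, all but *Ang4* overlap a gene of the opposite strand. *4930486I03Rik*, at 132, 109.6 and 97.4 CPM, is antisense to *Pkhd1*, *1700042O10Rik* to *Ddc*, *Gm29237* to *Sptbn1* and *1500035N22Rik* to *Prkag2*. Whether the bulk counting used strand is not stated, so reads of antisense partners could be assigned differently by the counting methods. *Ang4*, an angiogenin gene, was at 32.2, 38.9 and 17 CPM with no bulk read, and *Camp*, named above, at least 62.5-fold higher by the same floor.

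The 12 genes with the largest negative log2 fold change and at least 20 CPM in bulk were *Gstt3*, *Afmid*, *Myh1*, *Usp10*, *Hnrnpu*, *Lypla1*, *Grcc10*, *Ttbk2*, *Pabpn1*, *Gapdh*, *Gm4737* and *Wdr45*. *Gstt3*, a glutathione transferase gene (chr10:75774115-75781414 on the minus strand), was at 63, 56.1 and 58.6 CPM in bulk and listed at 0 in all nuclei libraries, as were *Afmid*, at 44.2, 37.9 and 29.4 CPM, and *Myh1*, at 18.5, 22.3 and 20.1 CPM. By the study's methods a gene was kept only if 10 or more nuclei of a library had it, so a listed 0 can stand for up to 9 nuclei and no fold is given. The deposited libraries also hold 59 to 206 genes seen in 1 to 9 nuclei. *Lypla1* was at 0.714, 0.535 and 0.721 CPM in nuclei and 186, 156 and 171 CPM in bulk (-8.02 ± 0.12), *Pabpn1* at 0.714, 0.77 and 0.569 against 75.9, 81.7 and 72.2 CPM (-6.79 ± 0.11) and *Usp10* at 0, 0 and 0.455 against 105, 109 and 114 CPM (-9.54 ± 0.34), the last with nuclei libraries listed at 0. Of the 12, *Gstt3*, *Afmid*, *Usp10*, *Lypla1*, *Grcc10*, *Ttbk2*, *Pabpn1* and *Wdr45* have most of their exonic bases inside another gene of the same strand, from 83.2% in *Wdr45* to 99.9% in *Afmid*. *Hnrnpu*, the scaffold attachment factor, has none, and was at 0.464, 0 and 0.417 CPM in nuclei and 83, 89.6 and 99.5 CPM in bulk (-8.29 ± 0.29).

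This was examined over all protein-coding genes tested. Of 13558 with no exonic base inside another gene of the same strand, 13.4% were called higher in nuclei and 14.1% lower, and 8.26% were under 1 CPM there. Of 508 with some but at most 50% of their exonic bases inside such a gene, 17.5% were called higher and 10.0% lower, and 3.74% were under 1 CPM. Of 277 with over 50%, 25.3% were called higher and 24.2% lower, and 21.3% were under 1 CPM. A filter of 20 CPM or more in bulk itself favours lower calls. With it 0.926% of 108 genes with over 50% were called higher and 39.8% lower. These shares were 5.43% and 15.9% of 276 with at most 50%, and 3.37% and 19.0% of the 7693 with none. These are descriptions with no test. The 2 counting methods treat a read that lies in more than 1 gene by their own rules, so the levels of overlapping genes are uncertain. With every gene left out that overlaps any other on either strand, 6982 genes remained, of which 1044 were called higher and 746 lower. The log2 fold changes of the genes that remained moved up by a median of 0.43, with which the calls of *Calb1* (-1.97), *Car3* (-1.76), *Gpx3* (-1.87), *Kl* (-1.84), *Kmt2d* (-1.98), *Nfil3* (-1.67), *Podxl* (-1.93), *Rpl8* (-1.88) and *Synpo* (-1.95) also ended and *Ghr* (2.34) and *Fosb* (2.05) were called higher.

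The shared list itself leaves out genes that only the bulk table holds. There were 11240 such non-mitochondrial genes, which took 1.63% to 1.66% of all bulk reads, and 138 of them had a mean of at least 20 CPM of all bulk reads. Of 124 matched to the annotation, 97 have more than 50% of their exonic bases inside another gene of the same strand. *Gm20388*, a predicted protein-coding gene (chr8:119910841-124345722 on the plus strand), covers 18 of the 138, 17 of them on its own strand, such as the complex IV gene *Cox4i1* at 635, 617 and 639 CPM, *Tcf25*, the dipeptidase gene *Dpep1* and *Rpl13*. *Gm20388* had 19492 to 23723 UMIs in a nuclei library and is listed for nuclei only. Genes listed for nuclei only numbered 883 and took 0.398% to 0.444% of the UMIs.

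*Myh1*, a myosin heavy chain gene of fast skeletal muscle, and *Krt5*, a keratin gene of basal epithelium on the urothelium list (0.357, 0.636 and 0.531 CPM in nuclei, 15.2, 15.3 and 16.5 CPM in bulk, -4.93 ± 0.17), led to 2 further lists that were written after these values were seen. The 12 genes of stratified squamous epithelium were all listed in bulk and summed to 8348 to 10940 reads in an intact library, and 5 of them were listed for nuclei with 51 to 83 UMIs in all. *Krt13* had 2739, 3604 and 3084 reads, *Krt4* had 2199, 2985 and 2525 reads, and loricrin, *Lor*, of the cornified envelope, was at 41, 53.5 and 48.6 CPM in bulk and 0.464, 0.669 and 0.379 CPM in nuclei (-6.54 ± 0.18). The 12 skeletal muscle genes summed to 4040 to 5415 reads in intact bulk and to 104 to 107 UMIs in nuclei, with *Myh4* at 989, 1279 and 1151 reads. The bulk libraries of cold-dissociated kidney suspensions from the same strain, sex and age held like sums, 9163 to 10501 and 4262 to 5005 reads, and the cells of those suspensions 122 to 190 and 44 to 81 UMIs. The urothelium genes *Upk3a* (0.81 ± 0.17, and -1.12 per exonic kb) and *Upk1b* (0.24 ± 0.15) were not called. Of the fat cell genes *Car3* was called lower (-2.19 ± 0.89), which rested on bulk library 1, at 15, 0.836 and 2.2 CPM in bulk and 1.04, 1.2 and 1.74 CPM in nuclei, and came to -0.21 without it, and which was also lost without any 1 nuclei library at values of -2.04, -2.13 and -2.43, and *Cfd* (-1.37 ± 0.75) and *Plin4* (-1.26 ± 0.23) were not called. The part of other tissue or of other libraries in these counts was not tested.

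The nuclei made from kidneys of the same strain, sex and age by fluorescence-activated nuclei sorting (FANS) were set against the same 3 bulk libraries, so the values are given side by side and share their controls. With the protocol labelled 3x500g, 3401 of 16504 genes (20.6%) were called higher than bulk and 2448 (14.8%) lower, and with that labelled 1x2000g 3563 of 16775 (21.2%) and 2049 (12.2%). Ribosomal protein genes called lower numbered 47 with sucrose nuclei, 61 with 3x500g and 40 with 1x2000g, with medians of -2.16, -2.64 and -1.83. For the respiratory chain these counts were 45, 56 and 25 of 82. Long adhesion genes called higher numbered 23, 25 and 24 of 28. Macrophage genes called lower numbered 1, 6 and 1 of 12, antigen presentation genes 0, 7 and 0 of 13, hemoglobin genes 0, 3 and 0 of 4, and mural, mesangial and fibroblast genes 6, 12 and 10 of 21. Distal convoluted tubule genes called higher numbered 2, 6 and 2 of 16. The 3 kinds of nuclei were not tested against each other. *Malat1* had log2 fold changes of 6.96, 6.18 and 6.65, *Gapdh* of -6.77, -6.47 and -6.72, *Slc12a1* of -0.11, 0.63 and 0.06, and *Klk1* of -1.70, -3.12 and -1.48. *Gstt3*, at 0 in sucrose nuclei, had -7.57 and -8.05 with the sorted nuclei.

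The same step from a 10x sum to bulk reads can be taken in cells, because freshly profiled cold-dissociated cells of the same strain, sex and age were sequenced with bulk RNA of cold suspensions (3 libraries each). The nuclei to intact bulk ratio was therefore tested against the cells to suspension bulk ratio in 1 edgeR fit over the 12 libraries and 13840 genes. In 1931 genes (14.0%) the nuclei ratio was higher and in 2182 (15.8%) lower, at an adjusted p under 0.05 and a log2 difference of at least 2. The TMM factors of this fit were 0.99 for nuclei, 1.13 to 1.19 for intact bulk, 0.68 to 0.76 for cells and 1.19 to 1.20 for suspension bulk. With library totals alone in place of TMM factors the counts were 2937 and 1583, so the split moved from 46.9% to 65.0% higher, and the median difference of all genes moved by 0.48 from 0.08. By the study's methods, the bulk RNA of suspensions came from cells left over after the dissociation, so the cells and suspension libraries can share kidneys. The labels do not pair them, and the fit treats all 12 libraries as independent. With library totals alone each list's median lay higher by about that shift. Intronic reads were counted for nuclei and not for cells, which changes with the kind of particle and cannot be told apart from it.

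Ribosomal protein genes differed between the 2 ratios almost throughout. The nuclei to intact bulk ratio was the lower one in 78 of 81, with TMM factors and with library totals alone. Over all genes tested with TMM factors it was lower in 15.8% and higher in 14.0%. The median log2 ratio of the ribosomal protein genes was -1.89 in nuclei against intact bulk and 3.80 in cells against suspension bulk. For the respiratory chain 75 of 82 were lower, with medians of -1.84 and 3.08, for secreted and small tubule proteins 17 of 19 (-0.89 and 1.91) and for chaperones 19 of 22 (-2.66 and 0.53). Long adhesion genes went the other way, with 18 of 21 higher and medians of 2.78 and -0.53. Of the macrophage genes 8 of 12 were lower (-0.16 and 3.01). For the proximal tubule transporters 1 of 29 was lower and 3 were higher, and both medians were negative (-1.17 and -0.71). The median of their differences, -0.18, was smaller than the shift between scalings and came to 0.31 with library totals alone. The counts for the other lists of this paragraph were then 73 of 82 lower for the respiratory chain, 15 of 19 for secreted and small proteins, 17 of 22 for chaperones, 20 of 21 higher for long adhesion genes and 8 of 12 lower for macrophage genes. Over all 13840 genes 2937 were then higher and 1583 lower. *Gapdh* was at 5.47, 4.66 and 4.45 CPM in nuclei and 454, 431 and 443 CPM in intact bulk, and at 2829, 3412 and 2901 CPM in cells and 500.0, 498 and 544 CPM in suspension bulk on the scale of this fit, a difference of -9.07 ± 0.15 between the log2 ratios.

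**Figure D5:**
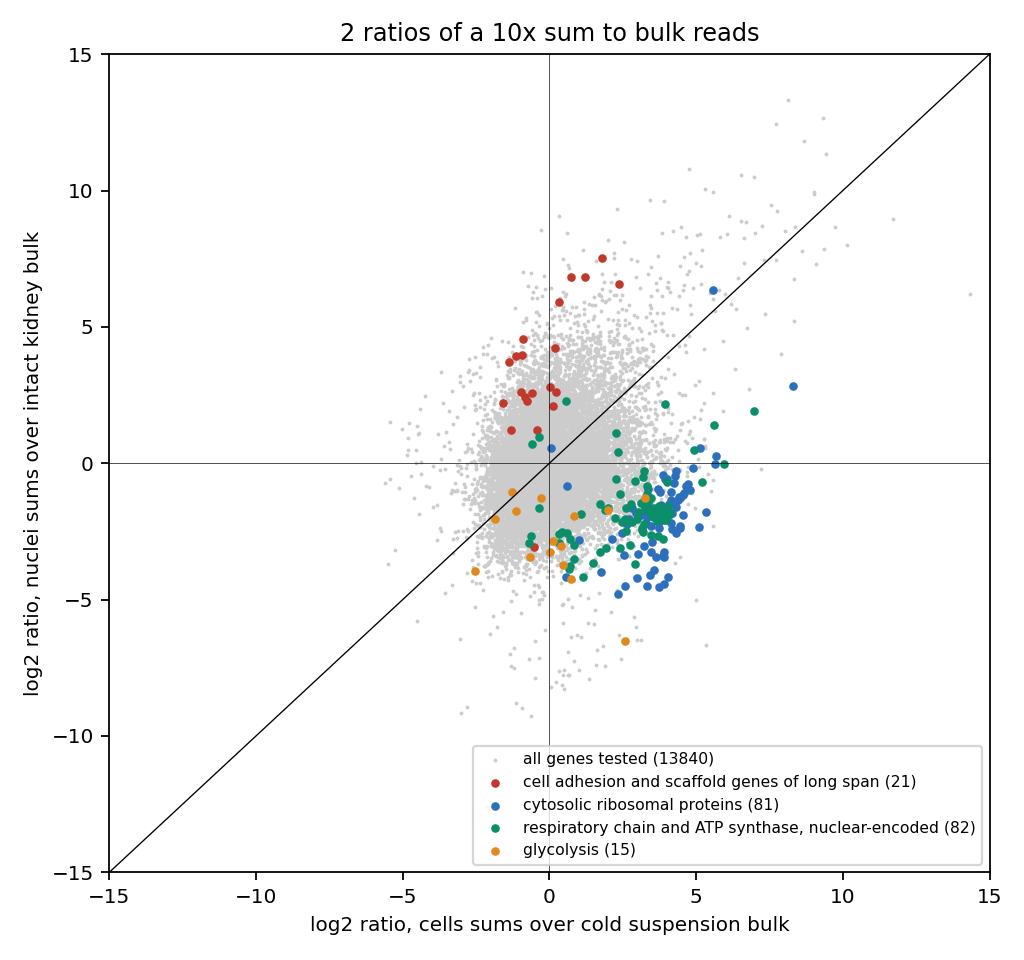
log2 ratio of nuclei sums to intact kidney bulk (y axis) against the log2 ratio of cells sums to cold suspension bulk (x axis) for 13840 genes in grey, with 4 gene lists in colour and the line of equal ratios in black. Ribosomal protein (blue) and respiratory chain (green) genes lie to the lower right, with medians of 3.80 and 3.08 on x and -1.89 and -1.84 on y, and long adhesion genes (red) above the line.

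The 6 genes with the largest higher nuclei ratio were *Egfem1*, *Gm37240*, *Gm17276*, *Gm19710*, *Lrrc4* and *Frmpd4*. *Egfem1* was at 124, 109 and 110.4 CPM in nuclei and 0.327, 0.268 and 0.303 CPM in intact bulk, and at 1.16, 0 and 0 CPM in cells and 0.448, 0.441 and 0.457 CPM in suspension bulk, a difference of 8.85 ± 0.82. *Frmpd4* was at 178, 138 and 189 CPM in nuclei and 2.53, 1.7 and 0 CPM in cells (7.23 ± 0.48). All 6 were at most 2.53 CPM in every cells library and listed at 0 in at least 1, which, as for nuclei, can stand for up to 9 cells. The 6 with the largest lower ratio were *Timm10b*, *Gstt3*, *Wfdc17*, *Afmid*, *Gapdh* and *Commd1*. *Timm10b*, of mitochondrial protein import, was listed at 0 in all nuclei libraries and at 124, 143 and 150.1 CPM in cells, with 9.26, 9.45 and 9.63 CPM in intact bulk and 9.53, 10.4 and 9.94 CPM in suspension bulk. *Wfdc17*, a secreted myeloid factor, was at 35.1, 25.8 and 53.1 CPM in cells and at most 1.1 CPM in every bulk library, and *Commd1*, of copper handling, at 0.44, 0.38 and 0.591 CPM in nuclei and 244, 249 and 229.7 CPM in cells (-8.94 ± 0.13).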

How the data were processed

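Messenger RNA was measured as UMIs in single nuclei and as reads in bulk. The deposited nuclei files hold UMI counts per gene and nucleus, which the authors made with Cell Ranger 2.1.1 on the mm10 genome with a pre-mRNA reference, so that intronic reads count. They kept genes seen in 10 or more nuclei of a library and nuclei with 200 to 3000 genes and at least 900 UMIs, and removed mitochondrial genes. Without those genes, 6 to 19 nuclei of a sucrose library have under 900 UMIs, and 59 to 206 genes are seen in 1 to 9 nuclei, and all were kept here. The deposited bulk files hold read counts per gene, made by the authors with Trim Galore, STAR 2.6.1a on GRCm38 and featureCounts. Whether the counting used strand, and whether duplicates were dropped before it, is not given in the sources used here. Overlapping, antisense and near-identical genes are therefore uncertain.

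UMIs were summed over all nuclei of a library, with doublets kept. Over the 17783 shared genes, edgeR 4.0.16 in R 4.3.3 was run with filterByExpr, TMM factors (0.97 to 1.01), the quasi-likelihood test and Benjamini-Hochberg adjustment over all 16610 genes tested. A gene was called at an adjusted p under 0.05 and a log2 fold change of at least 2 in size. The fit gives no SE, so it was taken as the size of the log2 fold change over the square root of F. The difference of the 2 ratios was the interaction of a fit over 12 libraries. Shares of counts were compared with exact permutation tests (scipy 1.17.1). Gene positions, lengths and overlaps are from GENCODE M21 on GRCm38, by symbol, with 16029 of the genes tested matched. Simulated data took mean levels and library totals from these libraries, with a dispersion set to 0.02, 200 genes changed and all other genes level between groups. With 14757 genes for nuclei against bulk and 13436 for the 2 ratios, all 100 genes changed by a log2 of 3 were called in each. None of 100 changed by a log2 of 1 was called (94 and 73 passed the adjusted p), and none of 14557 and 13236 unchanged genes was. Far more genes differ in the data, and both simulated sizes lie well away from the threshold of 2. The simulation therefore checks that the fit runs as written and gives no error rate for the data.

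Samples were grouped by their labels, and replicate numbers are only names. Genes named are the 12 called genes with the largest change in each direction at 20 CPM or more, the 10 highest of each group, all nuclear-retained, hemoglobin, sex-linked and stress genes, the 3 highest of every other list, *Calb1*, *Klk1* and 6 ratio genes in each direction. Others, chiefly called members of lists with 5 or fewer calls in a direction, were named after their values were seen. The members and the 40 lists were chosen with earlier results of these data known. Alternatives were relative log expression factors, library totals alone, no filter, DESeq2 1.42.0, edgeR's exact test, bulk counts per exonic kb, overlapping genes left out, a log2 threshold of 1 and leaving out each library. A count of runs of A in introns was not made. Some genes that these rules name are not reported here.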

Additional observations from a re-analysis of the deposited data

Results flagged for a closer look

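The nuclei to intact bulk ratio differed from the cells to suspension bulk ratio in 1931 genes upward and 2182 downward, by the interaction of an edgeR fit over 12 libraries. The 6 largest positive log2 differences were 8.85 for *Egfem1*, 8.74 for *Gm37240*, 7.92 for *Gm17276*, 7.82 for *Gm19710*, 7.61 for *Lrrc4* and 7.23 for *Frmpd4*. All 6 are listed at 0 in at least 1 cells library, so their values and order depend on how such zeros are listed. The 6 largest negative ones were -14.65 for *Timm10b*, -13.80 for *Gstt3*, -11.98 for *Wfdc17*, -10.47 for *Afmid*, -9.07 for *Gapdh* and -8.94 for *Commd1*. *Timm10b*, *Gstt3*, *Wfdc17* and *Afmid* are listed at 0 in all nuclei libraries, so their values depend on the prior count of the fit and are no bounds.

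Signals stood outside the shared genes. Of the genes listed for bulk only, 138 had a mean of at least 20 CPM. *Gm20388*, listed for nuclei only, had at least 19492 UMIs in every nuclei library. The squamous keratin genes *Krt13* and *Krt4* had at least 2739 and 2199 reads in every intact bulk library, and the muscle myosin gene *Myh4* at least 989, while none of these 3 is listed for nuclei.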

How the results depend on the processing

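The counts of genes called higher and lower, 3339 and 2105, came to 3451 and 1947 with relative log expression factors, 3461 and 1924 with DESeq2, 3339 and 2105 with edgeR's exact test, 3359 and 2066 with library totals alone, 3424 and 2366 without the filter and 3632 and 2944 with bulk counts per exonic kb. They came to 1044 and 746 with overlapping genes left out, where 6982 genes were tested, and to 5304 and 4777 at a log2 threshold of 1. For the 2 ratios, 1931 and 2182 became 4115 and 4048 at a log2 threshold of 1. With library totals alone they became 2937 and 1583. That setting leaves out TMM factors that ran from 0.68 in a cells library to 1.20 in a suspension bulk library. Why these factors differ between the groups was not tested. Leaving out each library gave 3361 to 3400 higher and 2078 to 2214 lower, and 1870 to 2082 and 2157 to 2215 for the ratios. Differences in share (nuclei minus bulk, in percentage points) then ran from -20.8 to -20.4 for protein-coding genes and from 19.4 to 19.8 for long intergenic noncoding RNAs. With bulk counts per exonic kb the log2 fold change changed sign for *Cubn* (0.50), *Egf* (0.38), *Lrp2* (0.12), *Psmd1* (0.37), *Slc4a4* (0.86), *Slc4a9* (0.24), *Tfcp2l1* (0.58), *Hba-a2* (-2.28), *Hist1h4i* (-2.48), *Ier2* (-0.59), *Ier3* (-0.54) and *Upk3a* (-1.12). On that scale genes not called in CPM were called higher, *Chd2* (3.47), *Dab2* (2.31), *Dlg1* (2.33), *Fosb* (2.20), *Ghr* (3.03), *Macrod2* (3.14), *Ptprk* (3.62), *Tspan18* (2.50) and *Utrn* (3.01), or lower, *B2m* (-3.29), *Cfd* (-3.55), *Hba-a1* (-3.57), *Hbb-bs* (-3.92), *Hbb-bt* (-3.75), *Hist1h1c* (-3.26), *Hist1h2bc* (-3.71), *Hspb1* (-3.21), *Ighm* (-2.98), *Jund* (-2.66), *Klk1* (-3.65), *Ldhb* (-3.41), *Napsa* (-2.33), *Pck1* (-2.15) and *Spp1* (-2.53). Of the histone genes *Hist1h1e* (1.91), *Hist1h4d* (0.47), *Hist2h2ac* (0.97) and *Hist2h4* (1.46) lost their calls. *Ptprk* was also called with relative log expression factors and DESeq2 (2.03 with both), *Ldhb* without the filter (-2.03), and *Car3* was not called with DESeq2 (-2.11). *Slc4a9* also turned, to 0.043, with overlapping genes left out, where the genes that remained moved up by a median of 0.43. Of 1120 list counts compared, 135 moved by over 1.5 times, 30 per exonic kb, 44 with overlapping genes left out (all members of the long adhesion and nuclear-retained lists called higher overlap a gene) and 39 at a log2 threshold of 1. No paired analysis was possible because the labels of the nuclei and intact bulk libraries share no replicate numbers, nor do those of the cells and suspension bulk libraries. Each group has 3 libraries, and the assay and the RNA fraction cannot be told apart.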
